A study of Mus musculus with 12 samples.

Results

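A set of 10 genes of blood vessel growth and of the endothelium were followed in mouse inguinal white adipose tissue, the fat under the skin of the groin: the growth factors Vegfa and Vegfb, their receptors Kdr and Flt1, the angiopoietins Angpt1 and Angpt2, the receptors Tek and Tie1, and the junction molecules Cdh5 and Pecam1. The genes were chosen by name and found among the 24344 genes of the deposited table. Total RNA was sequenced from 12 mice labelled C57BL/6J and aged 10 weeks, in 4 groups of 3. The WT_30C and WT_8C mice carried the genotype labelled WT, and the AKO_30C and AKO_8C mice the genotype labelled IRE1(alpha)-/-, while the series title names the lines Ern1f/f and Ern1f/f AKO. Every mouse had lived for 4 weeks at room temperature and for 6 weeks at 30 °C, and then spent 3 more days at 8 °C (the 8C groups) or at 30 °C (the 30C groups). The labels do not give the driver of the Ern1 deletion. Levels were given as FPKM, sequenced fragments divided by transcript length and by the size of the library, so the number of reads behind a value is unknown.

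Vascular endothelial growth factor A, made in fat largely by adipocytes, binds the receptor tyrosine kinase VEGFR2 (Kdr) on endothelial cells and drives their division and migration, while VEGFR1 (Flt1) binds the same ligand tightly and signals weakly, and is also the receptor of VEGF-B. Angiopoietin 1, released by perivascular and stromal cells, activates TIE2 (Tek) and keeps vessels quiescent, whereas angiopoietin 2, released by endothelial cells, opposes it in many settings, and TIE1 is a coreceptor with no ligand of its own. White fat that is recruited for heat production in the cold is known to gain capillaries.

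The first question was what cold did to these genes in each genotype. In mice labelled WT, Vegfa, Kdr, Flt1, Tek and Cdh5 rose after 3 days at 8 °C, the 3 receptors each about as much as one another, with log2 differences of 0.94, 0.96 and 0.85. In the libraries labelled AKO, Vegfa, Kdr, Flt1 and Cdh5 rose and Angpt1 fell. Vegfb, Tie1, Angpt2 and Pecam1 passed the test in no comparison. Between the genotypes, Tek was higher in the libraries labelled AKO at 30 °C (2.07-fold) and Vegfa was higher in them at 8 °C (1.55-fold). No member passed the test of the interaction, which asks whether the AKO over WT difference changed with temperature.

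These calls used limma on log2(FPKM + 1), with a Benjamini-Hochberg adjusted p under 0.05 over 13215 genes, and log2 differences below are on that scale, which understates the change of low genes. In WT mice cold raised 24.3% of all genes tested and lowered 24.7%, against 5 and 0 of the 10 members, and the median log2 difference was -0.01 over all genes and 0.33 over the members. In the libraries labelled AKO it raised 26.5% and lowered 23.1% of all genes, against 4 and 1 members. Over both directions together the members' share called by temperature was close to that of the table. The split of the table depended on scaling: it was 3211 higher and 3268 lower in WT and 3498 and 3050 in the libraries labelled AKO as deposited, 2401 and 4544 and 2238 and 5323 with libraries scaled to an equal sum, and 2990 and 4080 in the latter with upper quartile scaling. The genotype changed 0.795% of all genes at 30 °C and 2.03% at 8 °C, against 1 member each time, and 0.114% passed the interaction, against 0 members, with 1965 genes and 2 members (Vegfa and Tek) at an unadjusted p under 0.05.

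**Figure D1:**
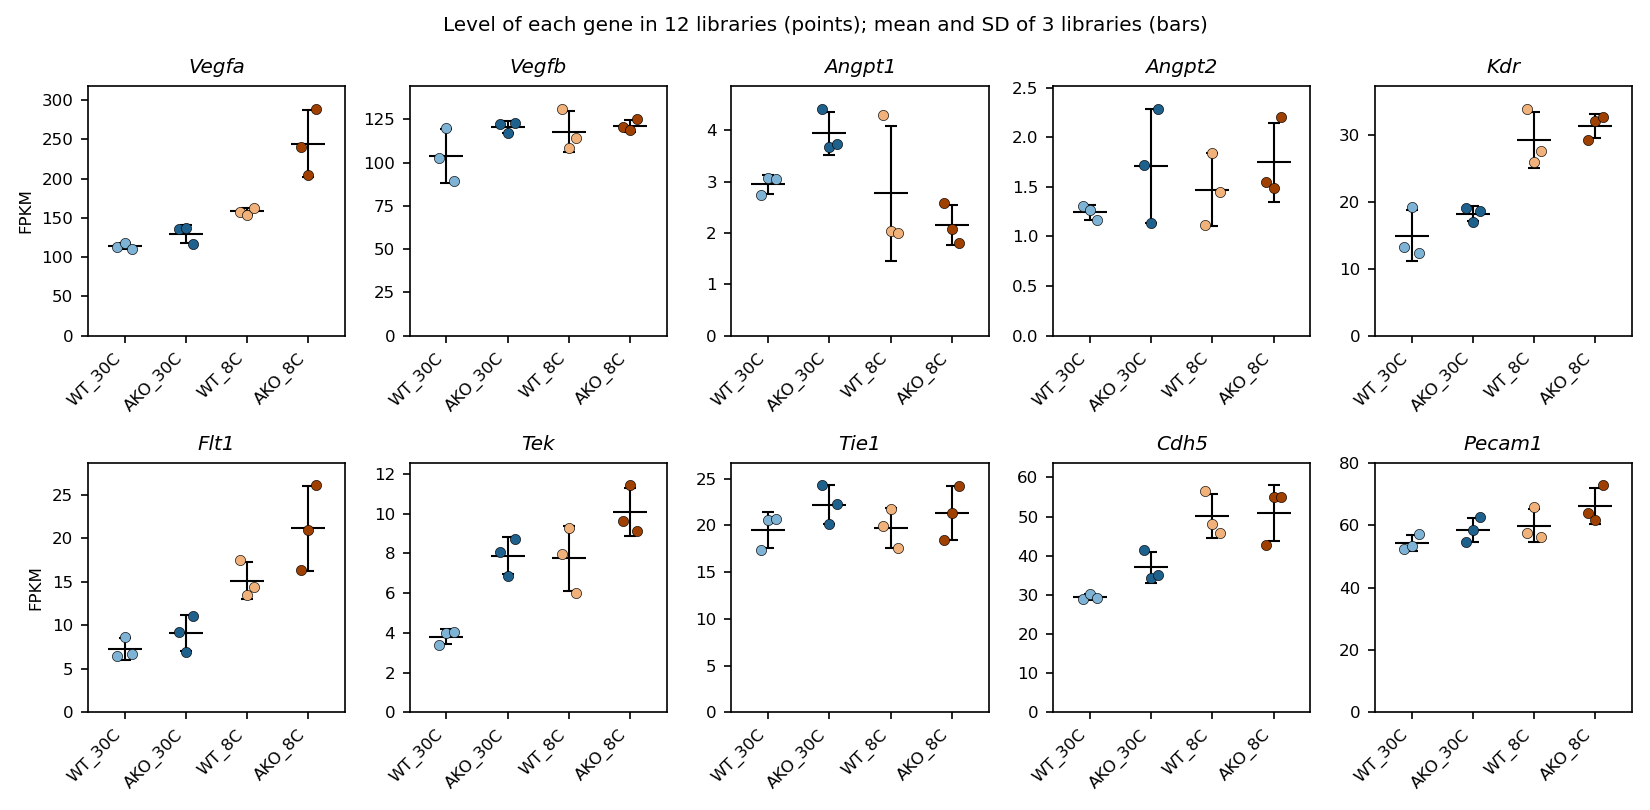
Level of each of the 10 genes in FPKM (vertical axis, starting at 0) in the 4 groups (horizontal axis). Points are single mice and bars are the mean with SD (n = 3); Kdr, Flt1 and Cdh5 lie higher in both groups at 8 °C, Vegfa is highest in AKO_8C, and Tek is lowest in WT_30C.

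Facts about the libraries touch several of these results. Ern1, which encodes IRE1alpha and lies on chromosome 11, 106394650 to 106487852 (GRCm38), stood at 2.53, 3.32 and 2.97 FPKM in the 3 WT mice and 4.5, 4.24 and 3.45 FPKM in the 3 mice labelled AKO at 30 °C, and at 4.53, 5.16 and 5.2 FPKM and 6.83, 6.92 and 7.37 FPKM in the same order at 8 °C. It was thus not lower in either group labelled AKO (adjusted p = 0.193 at 30 °C and 0.0756 at 8 °C, limma), and since the value adds up reads from every exon it checks neither a deletion within the gene nor the labels. The 10 adipocyte markers moved with temperature: they summed to 4542 to 6233 FPKM in WT_30C and 8063 to 13151 FPKM in WT_8C, and to 6347 to 6908 and 8006 to 9185 FPKM in the groups labelled AKO, with every sum at 8 °C above every sum at 30 °C. Of the 10, 8 rose with cold in WT (6 to 9 with a library left out), and 4 rose and 1 fell in the libraries labelled AKO. The library with the highest adipocyte sum, WT_8C replicate 1, also held 24.3 FPKM of Krt18 and 9.38 FPKM of Epcam, genes of epithelium, whereas the summed epithelial markers of every other library were at most 6.97 FPKM. The 6 skeletal muscle genes summed to 2078 to 5266 FPKM in WT_30C and 513 to 1054 FPKM in WT_8C, and the 9 T and B cell markers to 973 to 1365 and 459 to 646 FPKM. In the groups labelled AKO the muscle genes summed to 2185 to 4274 FPKM at 30 °C and 263 to 679.5 FPKM at 8 °C, and the T and B cell markers to 836 to 1032 and 294 to 556 FPKM. Of 10 fibroblast and adipose progenitor markers, 4 rose with cold in WT and 4 fell in the libraries labelled AKO (2 to 4 and 2 to 5 with a library left out). Of 9 macrophage markers, 3 rose in WT and 2 fell in the libraries labelled AKO (0 to 5 each with a library left out). Of all genes tested, cold raised 24.3% in WT and lowered 23.1% in the libraries labelled AKO. The part of these shifts in the changes with cold, those of Vegfa, Tek and Angpt1 included, was not tested.

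The sequence just upstream of the start was read for the genes whose changes are described most closely, Vegfa, Kdr, Flt1 and Tek, to show how different their promoters are in letters. RefSeq entries (GRCm38.p6) were given for 6 of the 10 genes, the other two of them Vegfb and Tie1; Angpt1, Angpt2, Cdh5 and Pecam1 are named only. Each run below holds the 250 bases before the RefSeq start, 5′ to 3′ on the strand of the gene, and capitals mark matches on either strand to ACGTG or GCGTG (forms of the core bound by hypoxia-inducible factors), TGACGTCA (the cyclic AMP response element), GGAAG (the core of ETS factors) or AAGGTCA (bound by oestrogen-related receptors).
Vegfa: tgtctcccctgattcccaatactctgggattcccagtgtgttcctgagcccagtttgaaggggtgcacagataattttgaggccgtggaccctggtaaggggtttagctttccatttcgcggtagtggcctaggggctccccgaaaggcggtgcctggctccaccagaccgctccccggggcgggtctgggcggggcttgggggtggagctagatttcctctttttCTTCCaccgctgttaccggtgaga
Kdr: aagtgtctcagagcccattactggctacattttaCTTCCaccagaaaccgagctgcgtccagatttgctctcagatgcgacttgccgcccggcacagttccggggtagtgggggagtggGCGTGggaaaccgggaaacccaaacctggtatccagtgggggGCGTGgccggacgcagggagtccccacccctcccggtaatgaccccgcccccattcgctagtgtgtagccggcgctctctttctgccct
Flt1: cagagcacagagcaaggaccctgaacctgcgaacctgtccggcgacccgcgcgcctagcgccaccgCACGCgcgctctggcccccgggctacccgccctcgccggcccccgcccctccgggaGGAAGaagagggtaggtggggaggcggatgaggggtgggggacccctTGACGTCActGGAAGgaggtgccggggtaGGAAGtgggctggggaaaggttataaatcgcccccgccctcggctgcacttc
Tek: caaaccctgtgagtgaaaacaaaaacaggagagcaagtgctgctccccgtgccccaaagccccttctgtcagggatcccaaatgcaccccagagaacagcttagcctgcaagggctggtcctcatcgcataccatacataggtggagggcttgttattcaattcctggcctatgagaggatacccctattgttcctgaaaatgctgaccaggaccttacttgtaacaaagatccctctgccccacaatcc
The windows are chr17:46032378-46032627 for Vegfa, chr5:75978456-75978705 for Kdr and chr5:147726012-147726261 for Flt1, all on the minus strand, and chr4:94739039-94739288 for Tek on the plus strand. The Vegfa window printed held 1 match, to GGAAG. RefSeq also lists a second Vegfa start inside the gene, whose window, chr17:46025164-46025413, is not printed and held 1 match to ACGTG, 1 to GCGTG and 1 to GGAAG. Kdr held 2 to GCGTG and 1 to GGAAG, and Flt1 held 1 to GCGTG, 1 to TGACGTCA and 3 to GGAAG. Tek held none and had the lowest GC content of the 4 windows, 51.2% against 70.4% in Flt1. No matches to different motifs overlapped in these 4 windows. Short cores are common: of 32851 such windows in the RefSeq table, 16.6% held ACGTG, 28.2% GCGTG, 1.55% TGACGTCA, 64.1% GGAAG and 4.08% AAGGTCA. A match is a run of letters and not a bound site, and no match says only that those letters are not in this window.

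Among the ligands, Vegfa (chromosome 17, 46016993 to 46032369, GRCm38, GENCODE M21) had the highest group mean per transcript length in every group, although single libraries overlapped with Vegfb at 30 °C. It stood at 113, 118 and 110.3 FPKM in WT_30C and at 158, 154 and 163 FPKM in WT_8C. In the groups labelled AKO it stood at 136, 137 and 116 FPKM at 30 °C and at 240.2, 204 and 289 FPKM at 8 °C. All 3 AKO_8C libraries lay above all others, and the lowest WT_8C library lay above the highest library of both 30 °C groups. The coefficient of variation between mice was 3.57% in WT_30C and 2.77% in WT_8C, but 17.4% in AKO_8C. Cold raised Vegfa by 0.47 in WT (SE 0.12, adjusted p = 0.00614, limma) and by 0.90 in the libraries labelled AKO (adjusted p = 6.60e-05). The genotype difference was 0.61 at 8 °C (SE 0.12, 95% confidence interval 0.35 to 0.87, adjusted p = 0.0314, limma) and 0.18 at 30 °C (adjusted p = 0.506). The interaction was 0.43 (interval 0.07 to 0.79, adjusted p = 0.269, limma), so a larger cold response in the libraries labelled AKO did not pass. The call between genotypes at 8 °C was narrow: it was lost when any one of 5 of the 6 libraries was left out, with adjusted p from 0.054 (without AKO_8C replicate 1) to 0.12 (without AKO_8C replicate 3) in limma, and kept only without AKO_8C replicate 2. In the authors' deposited table of the 8 °C comparison, Vegfa is the one member, with 158 and 244 FPKM, a log2 fold change of 0.63 and q = 0.00131. The value sums over the transcripts of the gene, 13 in GENCODE M21, so the isoforms of VEGF-A cannot be told apart.

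Vegfb (chromosome 19, 6982473 to 6987651), the related ligand of Flt1, overlapped Vegfa in level at 30 °C, lay below it in every mouse at 8 °C, and passed no test. It measured 103, 119.9 and 89.1 FPKM in WT and 122, 117 and 123 FPKM in mice labelled AKO at 30 °C. At 8 °C the values were 131, 108 and 114 FPKM in WT and 120.4, 119 and 125 FPKM in mice labelled AKO. The groups overlapped in all 4 pairwise comparisons, and the highest WT_30C library lay within the range of each other group. The ratio of Vegfa to Vegfb within a library, which does not depend on scaling between libraries, was 1.11 ± 0.125 in WT_30C, 1.08 ± 0.117 in AKO_30C, 1.35 ± 0.126 in WT_8C and 2.01 ± 0.293 in AKO_8C (SD, n = 3). At 8 °C the 3 AKO values, 2.0, 1.72 and 2.31, lay above the 3 WT values, 1.2, 1.42 and 1.43, a log2 difference of 0.57 (exact two-sided permutation p = 0.10, adjusted p = 0.40 over 16 ratio tests). With 3 mice against 3 no exact p can go below 0.1, so none of the ratio tests could pass.

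The VEGF receptors rose with cold in both genotypes. Kdr (chromosome 5, 75932827 to 75978458) stood at 13.3, 19.4 and 12.3 FPKM in WT_30C and 34.0, 26.1 and 27.7 FPKM in WT_8C. In the groups labelled AKO it stood at 19.1, 17.0 and 18.8 FPKM at 30 °C and 29.3, 32.2 and 32.7 FPKM at 8 °C. Every library at 8 °C lay above every library at 30 °C. The cold difference was 0.94 in WT (SE 0.15, adjusted p = 0.000371, limma; 1.95-fold in group means) and 0.75 in the libraries labelled AKO (adjusted p = 0.00143; 1.72-fold). Between genotypes Kdr differed by 0.29 at 30 °C (interval -0.03 to 0.62) and by 0.11 at 8 °C (interval -0.22 to 0.43), and neither passed.

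Flt1 (chromosome 5, 147561604 to 147726011) lies on the same chromosome as Kdr and was less abundant per length. It stood at 6.45, 8.68 and 6.69 FPKM in WT_30C, and at 17.5, 13.4 and 14.3 FPKM in WT_8C. It stood at 9.26, 6.94 and 11.1 FPKM in AKO_30C and at 16.4, 20.9 and 26.1 FPKM in AKO_8C. The 8 °C libraries again lay above all 30 °C libraries, and the 3 AKO_8C mice spread more widely than the 3 WT_8C mice. Cold raised Flt1 by 0.96 in WT (adjusted p = 0.00144, limma) and by 1.13 in the libraries labelled AKO (adjusted p = 0.000421). The genotype difference at 8 °C was 0.44 (interval 0.03 to 0.86, adjusted p = 0.224, limma), which did not pass, and the groups overlapped. The ratio of Flt1 to Kdr was 0.514, 0.516 and 0.517 in the WT_8C mice, nearly the same in each, and 0.557, 0.65 and 0.798 in the AKO_8C mice, with no overlap (log2 difference 0.36, exact permutation p = 0.10, the smallest possible, adjusted p = 0.40). At 30 °C its means were 0.492 ± 0.0473 in WT and 0.494 ± 0.092 in the libraries labelled AKO (SD, n = 3). Membrane-bound and soluble VEGFR1 come from one gene and are summed here.

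**Figure D2:**
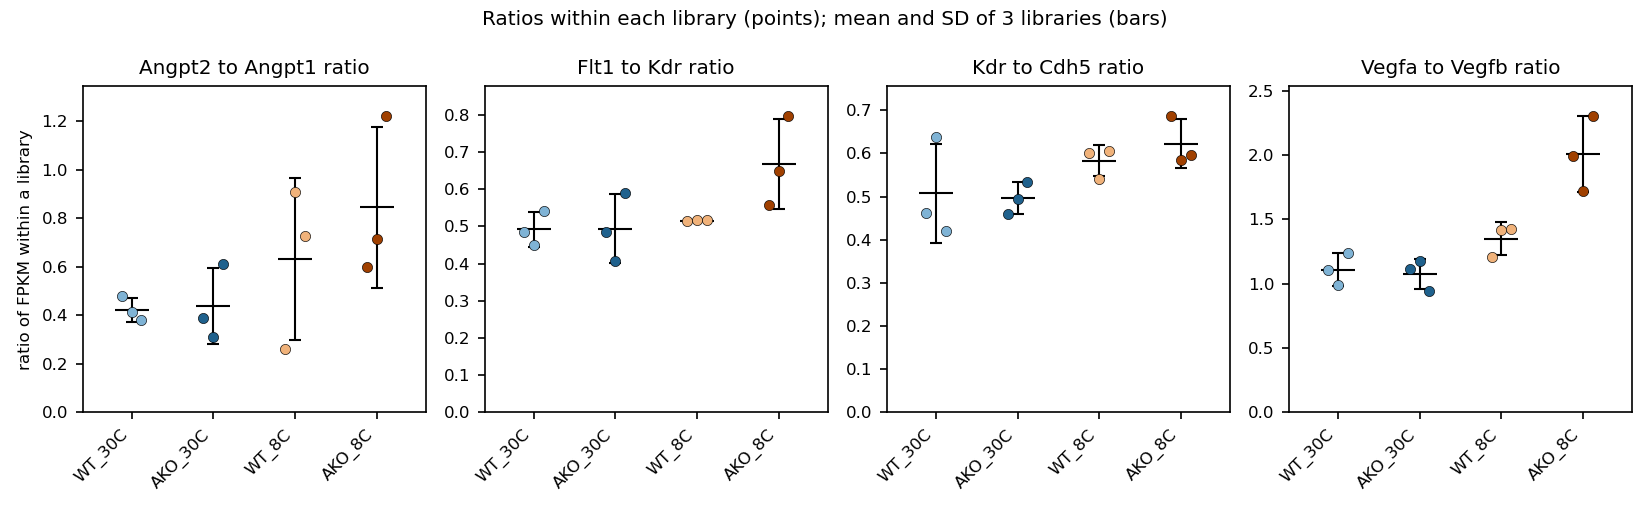
The 4 ratios of FPKM within a library (vertical axis, starting at 0) in the 4 groups (horizontal axis), with points for single mice and bars for the mean with SD (n = 3). Vegfa to Vegfb and Flt1 to Kdr are higher in all 3 AKO_8C mice than in the 3 WT_8C mice, while Angpt2 to Angpt1 overlaps at 8 °C.

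In the angiopoietin and TIE system the receptor Tek (chromosome 4, 94739289 to 94874976) was the one member called between the genotypes at 30 °C. It stood at 3.39, 3.98 and 4.06 FPKM in WT_30C and 8.07, 6.89 and 8.72 FPKM in AKO_30C. At 8 °C it stood at 7.97, 9.28 and 5.99 FPKM in WT and 9.64, 11.4 and 9.13 FPKM in the libraries labelled AKO. The 3 WT_30C libraries lay below all 9 others, AKO_30C overlapped WT_8C, and AKO_8C lay above AKO_30C. The genotype difference at 30 °C was 0.88 (SE 0.15, interval 0.56 to 1.20, adjusted p = 0.0292, limma) and that at 8 °C was 0.35 (interval 0.03 to 0.67, adjusted p = 0.217). Cold raised Tek by 0.85 in WT (adjusted p = 0.000642, limma), and its cold difference in the libraries labelled AKO was 0.32 (adjusted p = 0.0936), which did not pass. The interaction was -0.53 (interval -0.99 to -0.08, adjusted p = 0.276, limma). The call at 30 °C was lost without any one of 5 of the 6 libraries, with adjusted p from 0.0644 (without WT_30C replicate 2) to 0.161 (without WT_30C replicate 1) in limma, and kept only without AKO_30C replicate 2. In the authors' deposited table of the 30 °C comparison, Tek is the one member, at 3.81 and 7.89 FPKM, a log2 fold change of 1.05 and q = 0.000301.

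Markers of other cells moved with Tek at 30 °C. The 10 markers of fibroblasts and adipose progenitors summed to 362 to 493 FPKM in WT_30C and 923 to 1626 FPKM in AKO_30C, and 4 of them rose (Cd248 2.49, Pi16 4.05, Dcn 1.28 and Cd34 1.47; 0 to 2 with a library left out). The 9 macrophage markers summed to 585 to 700.4 and 874 to 1311 FPKM, with 2 called higher (0 with any one library left out), and the 5 platelet and megakaryocyte markers to 19.4 to 23.4 and 62.0 to 82.1 FPKM, with Pf4 called higher by 1.8 (lost without 5 of the 6 libraries). Other endothelial markers, 18 genes, summed to 417 to 432 FPKM in WT_30C and 486 to 514 FPKM in AKO_30C without overlap, yet 0 of the 18 passed the test there, with a median log2 difference of 0.28 against -0.04 over all genes. The part of these cells in the Tek value was not tested, and in bulk tissue more cells of a type and more RNA per cell cannot be told apart.

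Tie1 (chromosome 4, 118471191 to 118490061), the coreceptor, passed no test. It read 17.3, 20.6 and 20.7 FPKM in WT mice at 30 °C and 19.9, 21.8 and 17.5 FPKM in WT mice at 8 °C. Mice labelled AKO had 24.3, 20.1 and 22.3 FPKM at 30 °C and 18.5, 21.4 and 24.3 FPKM at 8 °C. All groups overlapped, and the cold difference in WT was 0.01 with an interval of -0.25 to 0.28, against 0.85 for Tek. Tie1 was more abundant per length than Kdr in both 30 °C groups and less abundant in both 8 °C groups, although single libraries of the pair overlapped in WT_30C.

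Angpt1 (chromosome 15, 42424723 to 42676977), the activating ligand of TIE2, was low. It stood at 2.74, 3.07 and 3.05 FPKM in the 3 WT mice and 4.42, 3.67 and 3.73 FPKM in the 3 mice labelled AKO at 30 °C, and at 4.29, 2.03 and 2.0 FPKM and 2.58, 2.09 and 1.8 FPKM in the same order at 8 °C. The AKO_30C libraries lay above the other groups except for 1 mouse, WT_8C replicate 1, which is the library with the epithelial genes. Angpt1 fell with cold in the libraries labelled AKO by 0.65 on the log2 scale (SE 0.20, adjusted p = 0.0155, limma), a call lost without AKO_30C replicate 1 (adjusted p = 0.053) or AKO_8C replicate 3 (adjusted p = 0.0588). In WT its cold difference was -0.12 (adjusted p = 0.636, limma) with all 6 libraries, and -0.39 (adjusted p = 0.0427) without WT_8C replicate 1, so that 1 library decides that call.

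Angpt2 (chromosome 8, 18690263 to 18741562), the context-dependent antagonist, had the lowest group mean per length in every group, although its libraries overlapped with those of Angpt1 in AKO_8C. It measured 1.31, 1.26 and 1.16 FPKM in WT and 1.71, 1.14 and 2.29 FPKM in mice labelled AKO at 30 °C. At 8 °C the values were 1.12, 1.85 and 1.45 FPKM in WT and 1.54, 1.49 and 2.2 FPKM in mice labelled AKO. The groups overlapped in every comparison, with adjusted p from 0.533 to 0.90 (limma). The ratio of Angpt2 to Angpt1 was 0.423 ± 0.0492 in WT_30C, 0.436 ± 0.157 in AKO_30C, 0.631 ± 0.334 in WT_8C and 0.845 ± 0.332 in AKO_8C (SD, n = 3). The spread between mice at 8 °C was as large as the difference between the genotypes there (exact permutation p = 0.60, adjusted p = 0.80).

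Of the junction molecules, Cdh5 (chromosome 8, 104101625 to 104144511), which encodes VE-cadherin of endothelial adherens junctions, rose with cold in both genotypes, as Kdr and Flt1 did. It stood at 28.9, 30.3 and 29.3 FPKM in WT_30C and 56.6, 48.1 and 45.8 FPKM in WT_8C. In the groups labelled AKO it stood at 41.5, 34.4 and 35.1 FPKM at 30 °C and 42.7, 55.1 and 54.9 FPKM at 8 °C. Every 8 °C library lay above every 30 °C library. Cold raised it by 0.74 in WT (adjusted p = 0.000404, limma) and by 0.44 in the libraries labelled AKO (adjusted p = 0.00904), where the call was lost when libraries were scaled to an equal sum (0.18, adjusted p = 0.236). At 30 °C the AKO libraries lay above the WT libraries without overlap, but the difference of 0.31 did not pass (adjusted p = 0.267, limma), and at 8 °C it was 0.02 with an interval of -0.25 to 0.28. The ratio of Kdr to Cdh5 was 0.507 ± 0.116 in WT_30C, 0.497 ± 0.0369 in AKO_30C, 0.583 ± 0.0357 in WT_8C and 0.623 ± 0.0565 in AKO_8C (SD, n = 3), so the group means of the ratio differed less than those of either gene. All 3 AKO_8C ratios lay above the 3 AKO_30C ratios (exact permutation p = 0.10, the smallest possible, adjusted p = 0.40).

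Pecam1 (chromosome 11, 106654217 to 106750628), the adhesion molecule CD31 of endothelial cells, platelets and some leukocytes, passed no test either. It read 52.3, 53.5 and 57.2 FPKM in WT mice at 30 °C and 57.6, 66.0 and 56.2 FPKM in WT mice at 8 °C. Mice labelled AKO had 54.8, 58.4 and 62.6 FPKM at 30 °C and 64.0, 61.8 and 72.9 FPKM at 8 °C. Its cold difference was 0.14 in WT (interval -0.07 to 0.35) and 0.17 in the libraries labelled AKO (interval -0.04 to 0.38), and neither passed. Groups of libraries did not overlap for 3 of the 10 members between genotypes at 30 °C (Tek, Angpt1 and Cdh5) and for 1 at 8 °C (Vegfa), against 19.1% and 24.1% of all genes. Between temperatures they did not overlap for 5 members in WT and 6 in the libraries labelled AKO, against 58.0% and 58.6% of all genes.

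**Figure D3:**
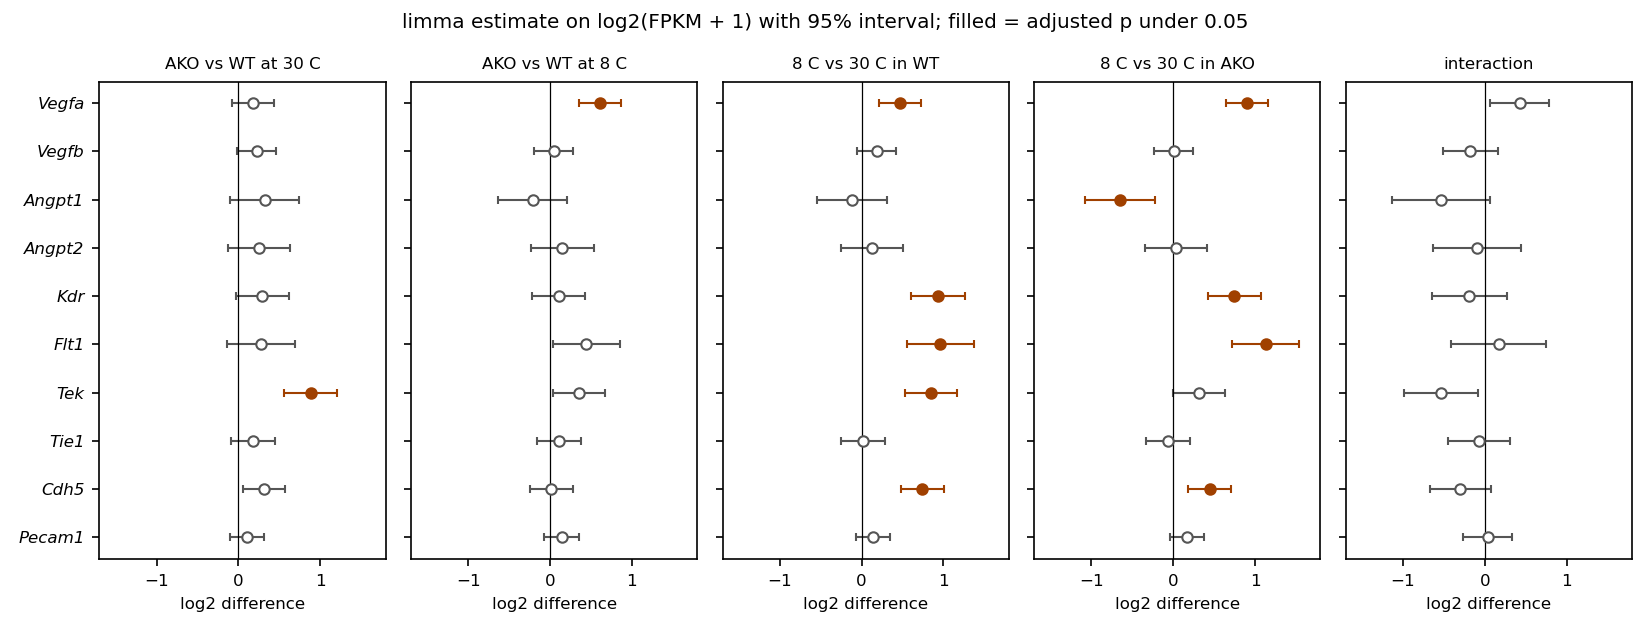
Log2 difference on the log2(FPKM + 1) scale (horizontal axis) of each member in the 5 comparisons, with 95% confidence intervals from limma; filled points passed an adjusted p under 0.05. Tek passes at 30 °C and Vegfa at 8 °C between the genotypes, and 5 members pass with cold in each genotype.

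Within a group, the endothelial genes did not all peak in the same mouse. Among the 6 endothelial members (Kdr, Flt1, Tek, Tie1, Cdh5 and Pecam1), Kdr, Flt1 and Cdh5 were highest in WT_30C replicate 2 and Tek, Tie1 and Pecam1 in WT_30C replicate 3. In WT_8C the same split fell between replicate 1, highest for Kdr, Flt1 and Cdh5, and replicate 2, highest for Tek, Tie1 and Pecam1. The split was another in AKO_30C, where replicate 1 was highest for Kdr, Tie1 and Cdh5 and replicate 3 for Flt1, Tek and Pecam1. In AKO_8C, replicate 3 was highest for Kdr, Flt1, Tie1 and Pecam1, and also for Vegfa, and replicate 2 for Tek and Cdh5. Some of these ranks rest on small gaps. Tie1 stood at 20.57 and 20.68 FPKM in WT_30C replicates 2 and 3, and Cdh5 at 55.08 and 54.93 FPKM in AKO_8C replicates 2 and 3. With 3 mice a group, the splits describe these libraries only.

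The genes whose profile over the 12 libraries was closest to each member were found by the root mean square difference of centred log2 values. They were Txnrd1, a thioredoxin reductase (0.11), Ndel1 (0.12) and Plekhm2 (0.12) for Vegfa, and Gas2l1 (0.09), Cdc42bpa (0.09) and Wipi1 (0.10) for Kdr. For Flt1 they were Epas1, the hypoxia-inducible factor HIF-2alpha (0.13), Rragc (0.13) and Pcyt1a (0.13), which lay almost equally close. For Cdh5 they were the small GTPase gene Rhoc (0.08), Pcgf3 (0.09) and Csad (0.10). The closest to Tek were the extracellular matrix genes Fbln2 (0.14) and Fbln5 (0.16) and Prrx1 (0.18), a transcription factor of mesenchymal cells. For the members that passed no test the closest were Tbc1d19 (0.08), Wfs1 (0.08) and Tmed1 (0.08) for Vegfb, and Auts2 (0.10), Smtn (0.10) and Tsc22d1 (0.10) for Tie1. They were Prkar1b (0.12), Kctd10 (0.14) and Trip10 (0.14) for Angpt2, and Ripk1 (0.08), Bap1 (0.08) and Ipo4 (0.08) for Pecam1. For Angpt1 the closest were Rbbp9 (0.15), Gng7 (0.16) and Tmtc4 (0.16). With only 12 libraries these are descriptions of likeness only.

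Around the members, the rest of the VEGF family moved in part, and the counts in this and the following lists are to be read beside those of all genes. With cold 24.3% of all genes tested were called higher and 24.7% lower in WT, and 26.5% and 23.1% in the libraries labelled AKO. Of 7 tested genes, 3 rose with cold in WT: the coreceptors Nrp2 (0.65) and Nrp1 (0.40) and the lymphatic receptor Flt4 (0.50), though only 1 to 2 of the family were called higher with a library left out. Pgf, placental growth factor, a ligand of Flt1, fell in WT (-0.51) and in the libraries labelled AKO (-0.86), where Nrp2 rose (0.52). Pgf stood at 4.86, 4.28 and 3.09 FPKM in WT_30C and 2.93, 2.57 and 2.11 FPKM in WT_8C, and at 4.55, 4.11 and 3.05 FPKM in AKO_30C and 1.38, 2.08 and 1.64 FPKM in AKO_8C, the reverse direction to Vegfa. None of the 7 differed between the genotypes at an adjusted p under 0.05. Among 7 angiopoietin-like and TIE pathway genes, Ptprb, the phosphatase that restrains TIE2, rose in both genotypes (0.45 and 0.50), Angptl2 fell in both (-0.66 and -1.33), and Angptl4, a secreted inhibitor of lipoprotein lipase, rose in the libraries labelled AKO (1.04). The calls of Flt4, Nrp1 and Pgf in WT, of Nrp2 and Angptl4 in the libraries labelled AKO, and of Ptprb in both were each lost without at least 1 of the 6 libraries.

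Hypoxia response genes, among which Vegfa is usually counted, were split. Of 16 tested, 6 rose and 2 fell with cold in WT (4 to 6 higher with a library left out), and 6 rose and 3 fell in the libraries labelled AKO. Rises in both genotypes included Pgk1, a glycolytic enzyme (1.21 and 1.9), Egln1, the prolyl hydroxylase that marks HIF for degradation (1.3 and 1.92), Ldha (0.73 and 1.03) and Epas1 (0.86 and 0.92). Falls in both were those of Ndrg1 (-0.62 and -0.67) and Ankrd37 (-0.87 and -0.99). The call of Ankrd37 in WT was kept in 3 of 6 analyses with a library left out. The list's median was 0.12 in WT and 0.23 in the libraries labelled AKO, against -0.01 and 1.1e-05 over all genes tested. Over both directions cold called 49% of all genes in WT and 49.5% in the libraries labelled AKO, near the share of this list. At 8 °C, 2 of the 16 were higher in the libraries labelled AKO, Egln1 by 0.67 (adjusted p = 0.0306, limma) and Pgk1 by 0.51 (adjusted p = 0.0333). The call of Egln1 was kept in 2 of 6 analyses with a library left out, and that of Pgk1 in 1 of 6. Both were lost without WT_8C replicate 1, with no filter and with only the libraries of the comparison. Egln1 stood at 61.7, 56.2 and 71.8 FPKM in WT_8C and 86.2, 115 and 103 FPKM in AKO_8C, without overlap.

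The PGC1alpha axis, 4 genes that include the coactivator Ppargc1a, a known inducer of Vegfa in muscle cells, rose with cold, 3 genes in WT and 4 in the libraries labelled AKO. Ppargc1a averaged 1.5 ± 0.597 FPKM in WT and 1.55 ± 0.616 FPKM in mice labelled AKO at 30 °C, and 5.42 ± 0.534 and 11.3 ± 1.56 FPKM at 8 °C (SD, n = 3). Its genotype difference at 8 °C was 0.94 (adjusted p = 0.038, limma), lost without any one of the 6 libraries. Esrra, the partner receptor, rose by 1.25 and 1.82 with cold.

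Other endothelial markers rose in part with the members. Of 18, 9 rose and 1 fell with cold in WT, and 6 rose and 1 fell in the libraries labelled AKO (6 to 9 and 3 to 7 higher with a library left out, and 6 to 10 and 2 to 6 under the other alternatives). Emcn, endomucin of capillary and venous endothelium, rose by 0.96 and 0.81, Eng, an endothelial coreceptor for TGF-beta, by 0.92 and 0.60, and Vwf, von Willebrand factor, by 0.97 and 0.75. Icam2 fell in both, by 0.40 and 0.44. The list's medians were 0.44 and 0.17, against -0.01 and 1.1e-05 over all genes tested. Of all genes, cold raised 24.3% and lowered 24.7% in WT, and 26.5% and 23.1% in the libraries labelled AKO. The whole list summed to 507 to 600.4 FPKM in WT_8C and 490.3 to 627 FPKM in AKO_8C.

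**Figure D4:**
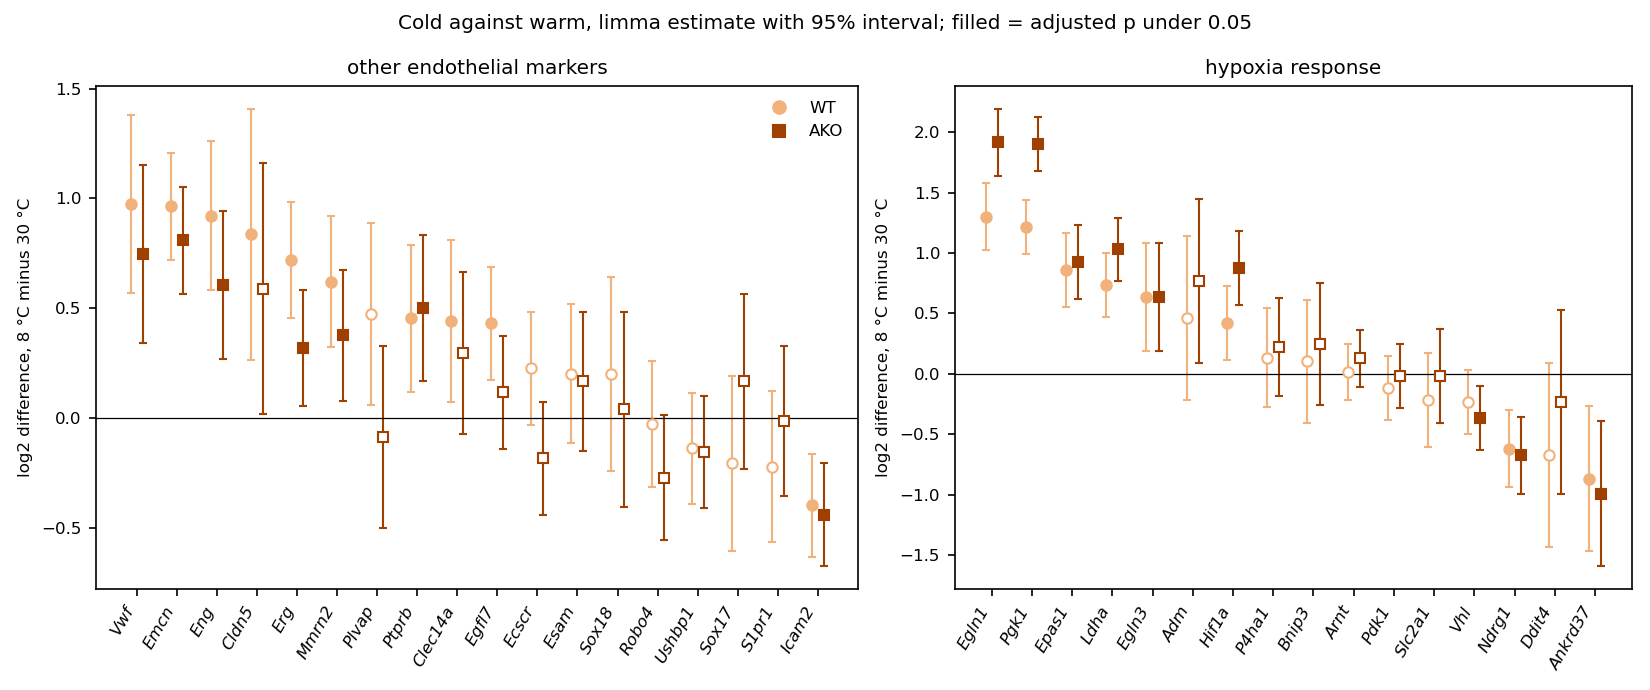
Log2 difference between 8 °C and 30 °C on the log2(FPKM + 1) scale (vertical axis) for each other endothelial marker (left) and hypoxia response gene (right), with 95% intervals from limma, circles for WT, squares for the libraries labelled AKO and filled symbols for an adjusted p under 0.05. Emcn, Vwf and Eng are filled above 0 in both genotypes, Icam2 is filled below 0 in both, and Egln1 and Pgk1 lie highest among the hypoxia genes.

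Genes of sprouting and of the vessel wall gave the following counts. Over both directions cold called 49% of all genes tested in WT and 49.5% in the libraries labelled AKO. Of 15 Notch and tip cell genes, which include the member Angpt2, 5 rose and 2 fell in WT and 2 rose and 3 fell in the libraries labelled AKO. With a library left out the counts that rose were 2 to 5 and 0 to 3, and 1 to 3 fell in the libraries labelled AKO; other settings gave 1 to 5 higher in WT, and 0 to 2 higher and 2 to 5 lower in the libraries labelled AKO. Apln, the apelin ligand of sprouting tip cells, rose by 0.75 and 0.48, while Cxcr4, shared with leukocytes, fell by 1.24 and 1.21. Of 10 adipose capillary genes, 6 rose and 1 fell in WT, a count of 2 higher without WT_8C replicate 1, and 5 rose in the libraries labelled AKO (2 to 5 under the other settings). Gpihbp1, which carries lipoprotein lipase across capillary endothelium, rose by 0.59 and 0.65, and Lpl, also an adipocyte gene, by 1.13 and 1.26. Of 12 pericyte and smooth muscle genes, 8 rose and 1 fell in WT and 4 rose and 2 fell in the libraries labelled AKO. Kcnj8, a potassium channel of pericytes, rose by 1.16 and 0.71, and Acta2, smooth muscle actin, by 1.34 and 0.73. Mcam went the other way in both genotypes (-0.49 and -1.10). Its call in WT was kept in 4 of 6 analyses with a library left out, and that in the libraries labelled AKO in 6 of 6. With a library left out 5 to 8 of these 12 rose in WT and 2 to 5 in the libraries labelled AKO (1 to 5 under the other settings). Of 7 lymphatic markers listed, 5 were tested. With cold in WT, 3 rose (Lyve1 1.87, Pdpn 0.59 and Flt4 0.50) and 1 fell (Ccl21a -0.74), and 1 to 3 rose with a library left out. In the libraries labelled AKO 0 rose (0 to 1 with a library left out) and 2 fell (Ccl21a -0.76 and Reln -0.48), or 1 to 2 with a library left out. Which cells these values came from was not tested. Pdpn was also called higher in the libraries labelled AKO at 30 °C (1.07), a call lost whichever of the 6 libraries was left out. The calls of Apln and Acta2 in the libraries labelled AKO were lost without 2 and 3 of the 6 libraries.

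Among 17 other angiogenic factors and inhibitors, 9 rose in WT (5 to 10 with a library left out and 5 to 11 under the other settings) and 7 rose and 1 fell in the libraries labelled AKO (6 to 9 higher with a library left out). Tnfrsf12a, the receptor of the cytokine TWEAK, rose by 1.54 and 2.77, Fgf1, fibroblast growth factor 1, by 0.86 and 1.14, and Adamts1, a protease that can inhibit vessel growth, by 1.25 and 1.68. Thbs1, the angiogenesis inhibitor thrombospondin 1, rose by 3.27 in the libraries labelled AKO. Between genotypes, Serpinf1 (1.31), Ecm1 (1.7) and Tnfsf12 (0.74) were higher at 30 °C in the libraries labelled AKO, and Tnfrsf12a was higher at 8 °C (1.36); the calls of Serpinf1, Ecm1 and Tnfsf12 were lost whichever of the 6 libraries was left out, and that of Tnfrsf12a at 8 °C without 4 of them.

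Of the cold calls on listed genes named by the rule, 45 of 57 in WT were kept whichever library was left out. In the libraries labelled AKO 41 of 54 were kept. These cold calls were picked for the smallest adjusted p in each list, and the other listed cold calls are not counted. Between genotypes every call on a listed gene is counted. There 0 of 11 were kept at 30 °C and 1 of 6 at 8 °C, where the exception was Lep. Because of this difference in choice, the cold and genotype shares cannot be compared.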

How the data were processed

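RNA-seq of inguinal fat from 12 mice was used, with groups as labelled. Per the submitters' processing notes, bcl2fastq, FastQC 0.11.3, TopHat2 2.0.14 and Cufflinks 2.2.1 were used with build mm10; annotation and options are not given in the sources used here. The gene table the authors deposited holds FPKM (99.986% of its nonzero values are not whole), so depth and counting error are unknown. Per the file headers, the authors' deposited comparison tables give group FPKM, a log2 fold change without pseudocount, the p-value and q-value, and a score for the test.

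A test for read counts had been set as the first choice and limma as the fallback for FPKM, which was used: limma 3.58.1 in R 4.3.3 on log2(FPKM + 1), 1 mean per group over 12 libraries, a variance trend, two-sided, Benjamini-Hochberg adjusted over the 13215 genes with at least 1 FPKM in at least 3 libraries, after 2 genes listed at 0 in some libraries and at 1000 or more in others were left out. The interaction subtracts the genotype difference at 30 °C from the one at 8 °C. The 4 ratios were tested with exact two-sided permutation (scipy 1.17.1, Python 3.11.15). The limma test was run on simulated normal values with the spread it had estimated, which meet its assumptions by design. Whether FPKM values meet those assumptions cannot be read from this. There it called 36 of 67 genes changed 1.5-fold between the genotypes at 30 °C and 31 of 67 at 8 °C. The labels describe 3 mice a group, and p-values measure the spread between them.

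The members and lists were chosen with earlier results of these data known. Named genes were the members, Ern1, up to 4 called genes with the smallest adjusted p in each list and comparison, and the 3 closest profiles of each member, predicted genes left out. Levels of a listed gene are given where its change is described. Krt18, Epcam, Ndrg1 and Ankrd37 were chosen after their values were seen. Alternatives were no filter, a filter at 5 FPKM, pseudocounts of 0.1 and 0.5, other scalings between libraries, only the libraries of a comparison, a replicate block, no variance trend, a robust variance estimate and each library left out. Positions are from GENCODE M21 and promoters from RefSeq.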

Additional observations from a re-analysis of the deposited data

Results flagged for a closer look

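Lep, the adipokine leptin, was the only listed gene to pass the interaction between genotype and temperature, at -3.23 on the log2(FPKM + 1) scale (adjusted p = 0.0267, limma): it rose with cold by 0.88 in WT and fell by 2.35 in the libraries labelled AKO. The interaction call was kept in 5 of the 12 analyses with a library left out. The call of the rise in WT was kept in 2 of 6 such analyses, and lost with no filter, with equal sum scaling and with the replicate block. The call of the fall in the libraries labelled AKO was kept in 6 of 6 and under every other setting.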

How the results depend on the processing

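The count of members called between the genotypes at 30 °C, 1 in the main analysis, was 0 with no filter and 0 with the replicate block, and 0 to 1 with a library left out. At 8 °C the count of 1 was 0 with no filter and 0 with only the libraries of the comparison, and 0 to 1 with a library left out. Tek at 30 °C had an adjusted p of 0.167 with no filter and 0.0561 with the block, and Vegfa at 8 °C 0.0747 with no filter and 0.0793 with its own libraries (limma). Of 890 values of the members under alternatives, 870 kept their side of the threshold, 18 lost the call, 2 gained it and 0 changed sign with a call. Values that stayed uncalled could change sign, as Tie1 did with cold in WT (down to -0.07 with a library left out). Vegfb with cold in WT was one gain (0.0359 without WT_30C replicate 2) and Angpt1 in the libraries labelled AKO one loss (0.0521 with no filter). At 5 FPKM Angpt1 and Angpt2 gave no value. With the group mean of each gene subtracted, same-numbered libraries of different groups correlated at -0.109 to 0.205, 8 of 18 pairs above 0.1. On the same subtracted values, differently numbered libraries of different groups correlated at -0.257 to 0.170, with a smaller share of pairs above 0.1. The main analysis did not take the numbers as pairing, and the replicate block was run as an alternative. Whether same-numbered libraries share an effect was not tested. Over all genes the 105 calls at 30 °C became 1 with no filter, 1 with the block, 56 with median ratio scaling, 69 with no trend and 49 with the robust estimate; the 268 at 8 °C became 68, 419 with the block, 173 with equal sum scaling and 6 with their own libraries; the 15 of the interaction became 5 with no filter, 4 at a pseudocount of 0.1, 8 with equal sum scaling and 23 with the block. With a library left out the 3 counts ranged over 0 to 29, 23 to 196 and 0 to 17. Equal sum scaling moved the median of all genes with cold by -0.13 in WT and -0.23 in AKO. Of 3050 list counts, 246 moved by over 1.5 times or changed to or from 0. The causes were not tested.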
